A study of Drosophila melanogaster with 75 samples.

Results

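The comparison of mated with control male heads rests on 10 of the 15 arrays of the series, 5 of each group, chosen by their titles and paired by replicate number. Mated males were virgin males of an isogenized *Canton-S* line, 5 days old, each placed with 1 virgin female and frozen 2 hrs after mating ended. Control males were of the same line and age, went through the same handling with the aspirator but received no female, and were frozen alongside. A pool held 30 heads, and each array received RNA from 1 pool. The remaining 5 arrays hold courted males, which had met a virgin female that was cauterized. They were not part of the comparison, except in an alternative fit of all 15 arrays. Only males whose latency and duration of mating fell within limits set by the study were pooled, so the mated group is a selected one. Since whole heads were ground up, fewer cells of a type and less RNA per cell cannot be told apart in any value given here.

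A fly head holds the brain and its glia, the eyes, the antennae and mouthparts, muscle, blood cells and a layer of fat body around the brain. The fat body is the insect counterpart of liver and adipose tissue: it stores lipid and glycogen, interconverts amino acids and purines, secretes storage and immune proteins into the blood, and carries much of the sex-biased expression of the head. Juvenile hormone, an isoprenoid made by a gland near the brain, circulates in the blood and is broken down by esterases and epoxide hydrolases.

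On each array, 40.3% to 40.6% of probe sets in mated heads and 40.2% to 40.8% in control heads had a GC-RMA intensity above 100. A mean above 100 over the 10 arrays was required, which 7621 probe sets met, and 6392 genes had a probe set of their own among them. The brightest probe set stands for each gene. Markers of the head's tissues were present: the synaptic gene *nSyb*, the photoreceptor genes *trp* and *Arr2*, the fat body genes *Lsp2* and *apolpp* and the glial genes *repo*, *nrv2* and *Gs2* passed the threshold. The neuronal genes *elav* and *brp* did not (at most 10.9 and 74.2), and *ninaE* and *to* were not analysed here. Genes of the body that heads should lack were near the lowest intensities of the arrays. *Acp26Aa*, *SP*, *Mst87F*, *alphaTry* and *Jon25Biii* had at most 4.85 on every mated and control array, and 0 of 33 accessory gland and testis genes and 0 of 19 gut and salivary gland genes passed the threshold. The flight muscle actin *Act88F* had 66.9 to 78.3 in mated heads and 69.6 to 115 in control heads, also under the threshold.

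Differences between mated and control male heads were small and spread over many genes. In limma, with the pair as a block, the adjusted p was under 0.05 for 0 of the 7621 probe sets and 0 of the 6392 genes (0%), and its lowest value was 0.101. An unadjusted p under 0.05 was found for 225 genes (3.52%) that were higher in mated heads and 398 genes (6.23%) that were lower. Direction was shared by all 5 pairs in 223 genes (3.49%) that were higher and 452 genes (7.07%) that were lower. Every mated array lay above every control array in 31 genes (0.485%) and below in 68 genes (1.06%). Of all 6392 genes, 41.5% had a fold change above 0 and 58.5% had one below 0. Those shares are the background against which every group of genes below is read. On the same arrays, 1 probe set had an adjusted p under 0.05 without the pair as a block, 9 did with limma-trend, 37 with a Cyber-T style regularized test and 0 with the methods' t-test without regularization. With the pair as a block, the p-values set the mean difference against how the difference within a pair varied over the 5 pairs. Differences in level from pair to pair do not enter them.

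The excess of lower over higher values depended on how arrays were put on a common scale. The median log2 fold change over all genes was -0.02 in the deposited GC-RMA values, where 36.1% of the 623 genes with an unadjusted p under 0.05 were higher in mated heads. That share was 54.9% (324 higher and 266 lower) after each array was centred on its median and 53.1% (304 and 269) after quantile normalization. It was 63.1% in the dChip PM values (593 and 347) and 54.0% in the MAS5.0 values (285 and 243). Over all genes, whatever their p, 49.5% had a fold change above 0 after centring and 46.9% after quantile normalization. The balance of directions is therefore not given as a result, and small shifts of whole groups are read beside this. The directions of single genes were steadier. Of the 225 genes with higher values, 222 had the same sign in dChip PM and 221 in MAS5.0, and of the 398 with lower values 376 and 377 did.

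**Figure D1:**
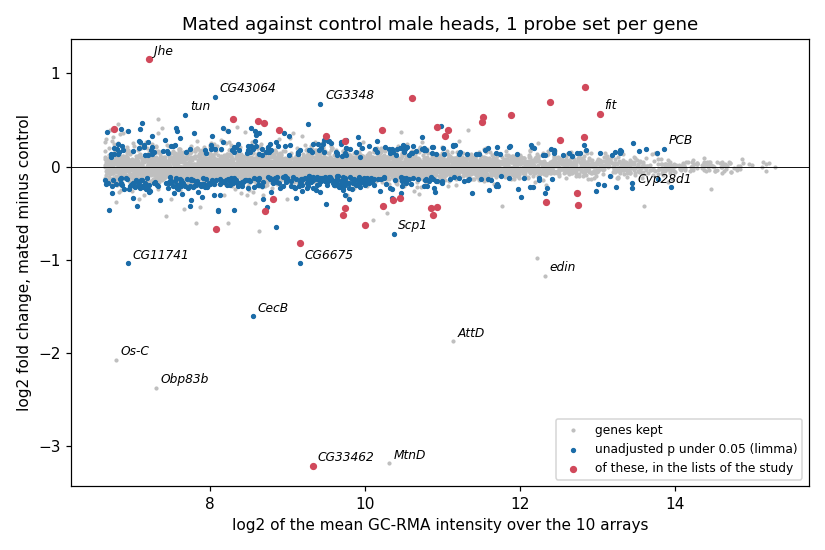
Each point is 1 gene, with the log2 of its mean GC-RMA intensity over the 10 arrays on the x axis and the log2 fold change, mated minus control, on the y axis. Blue points have an unadjusted p under 0.05 in limma and red ones are also in the 2 lists of the study; the widest differences, such as those of *CG33462*, *MtnD* and *Obp83b*, belong to genes that varied most among arrays of the same group.

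Large differences were few. A log2 fold change beyond 1 in either direction, or over 2-fold, was found in 10 genes, and 5 of these had an unadjusted p under 0.05. Beyond 0.5 there were 35 genes, 22 of them with an unadjusted p under 0.05. Among genes with such a p, the median size was 0.18 on the log2 scale, with a median SE over all genes of 0.06.

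The study's own lists held 25 genes named as higher and 22 named as lower after mating. Of the first list, 22 genes passed the intensity threshold, 21 were higher at an unadjusted p under 0.05 and 19 in all 5 pairs. Of the second, 17 passed the threshold, all 17 were lower at an unadjusted p under 0.05 and 15 in all 5 pairs. Both lists were chosen on these arrays, so the counts are no independent evidence of direction. The gene in the other direction was *Zasp52*, a Z-disc protein of muscle, with a log2 fold change of -0.10 (SE 0.07). That value is from the brightest probe set annotated to it alone, and which probe set the study used is not stated. Outside these lists, 204 genes that were higher in mated heads and 381 that were lower had an unadjusted p under 0.05, and the account that follows is mainly about them.

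Among genes outside the study's lists that were higher in mated heads in all 5 pairs, *CG43064*, *CG3348* and *tun* had the largest differences of the 15 with the lowest p. *CG43064* had a log2 intensity of 8.69, 8.06, 7.91, 8.76 and 8.30 in mated heads of pairs 1 to 5, against 8.33, 7.07, 7.53, 7.33 and 7.71 in control heads. Its log2 fold change was 0.75 (SE 0.16, adjusted p = 0.247 in limma), or 1.68-fold, and the groups overlapped only through control pool 1. *CG3348* had 8.67, 10.01, 10.44, 9.50 and 9.43 in mated heads, against 8.12, 8.96, 9.63, 8.57 and 9.41 in control heads, a log2 fold change of 0.67 (SE 0.14). Pools differed more from pair to pair than within a pair for this gene, and in pair 5 the values were nearly equal. For *tun* the values were 7.66, 7.94, 7.76, 8.17 and 8.02 in mated heads, against 7.02, 7.46, 6.95, 7.38 and 7.96 in control heads (log2 fold change 0.56, SE 0.11), and pair 5 again showed the narrowest gap.

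Further genes in this set span ubiquitin, transport, metabolic and protease functions. *mura*, an E3 ubiquitin ligase, had 8.03, 8.05, 7.96, 8.50 and 8.27 in mated heads, against 7.67, 7.88, 7.43, 8.15 and 8.05 in control heads, and the lowest adjusted p of the set (0.201 in limma, log2 fold change 0.33, SE 0.06). *pippin*, a predicted sugar transporter, had a log2 fold change of 0.24 (SE 0.05), and *CG5853*, a predicted transporter of the ABC class, had 0.26 (SE 0.06). *PCB* encodes pyruvate carboxylase, which feeds carbon into the citric acid cycle and toward glucose. It was among the brightest genes with an unadjusted p under 0.05, with 13.91, 13.93, 13.94, 13.99 and 13.95 in mated heads, against 13.68, 13.68, 13.88, 13.75 and 13.76 in control heads, so that the groups did not overlap although the log2 fold change was only 0.19 (SE 0.05). The serpin *Spn42Dd*, an inhibitor of proteases, had 0.20 (SE 0.05), the predicted serine protease *CG30002* 0.22 (SE 0.05) and the transcription factor gene *TfAP-2* 0.22 (SE 0.05). The other 5, *CG42246*, *CG8389*, *CG16743*, *CG9304* and *CG33296*, lay between 0.28 and 0.42. Of the 15 genes, 5 had every mated array above every control array (*CG42246*, *CG8389*, *CG9304*, *CG30002* and *PCB*), and all 15 had the same sign in dChip PM and in MAS5.0.

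**Figure D2:**
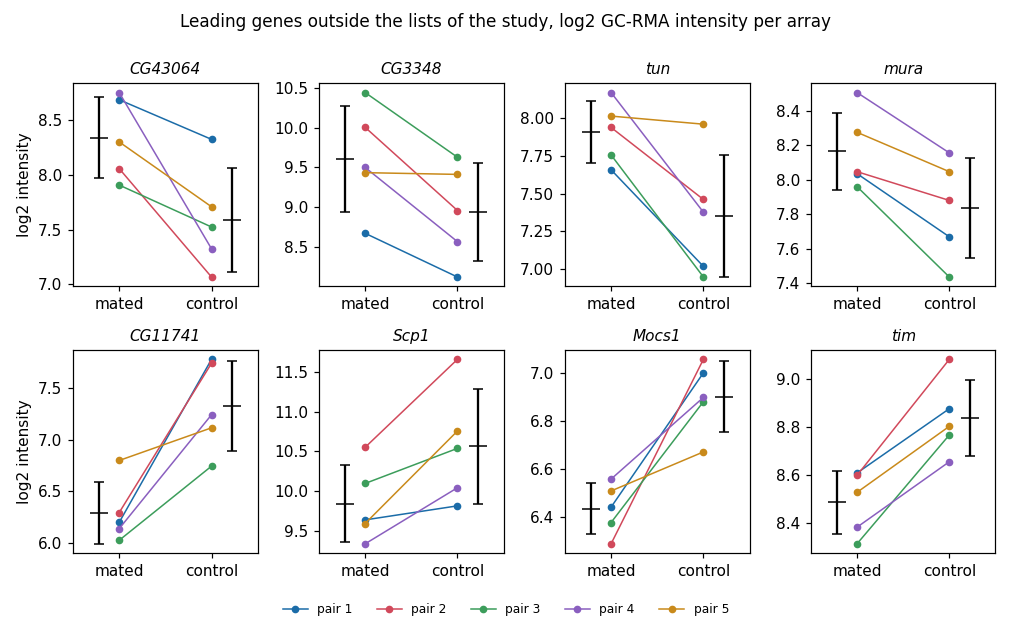
Log2 GC-RMA intensity (y axis) in mated and control heads (x axis) for 8 genes outside the lists of the study. Each line joins the arrays of 1 pair, and the black bars give the mean and SD over 5 arrays of a group; the upper 4 genes were higher and the lower 4 lower in mated heads in every pair.

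Among the 15 genes with the lowest p that were lower in all 5 pairs outside the study's lists, *CG11741* had the largest difference. Its log2 intensity was 6.20, 6.29, 6.02, 6.14 and 6.80 in mated heads, against 7.78, 7.74, 6.75, 7.24 and 7.12 in control heads. The log2 fold change was -1.04 (SE 0.18, adjusted p = 0.154 in limma), and the only overlap was between mated pool 5 and control pool 3. The linear mean of *CG11741* was 79.8 in mated heads and 166.5 in control heads, so it passed the threshold of 100 only through the control group, and its log2 fold change was -0.55 in dChip PM and -0.60 in MAS5.0. *Scp1*, which encodes a calcium-binding protein of the sarcoplasm, had 9.64, 10.55, 10.10, 9.33 and 9.59 in mated heads, against 9.81, 11.66, 10.54, 10.04 and 10.76 in control heads (log2 fold change -0.72, SE 0.15). The gap within pair 1 was the narrowest, and the groups overlapped.

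A pair of genes in the set of 15 belong to molybdenum metabolism, a theme named after their values were seen. It is not among the functional lists, and other genes of it were not examined. *Mocs1* acts in the first step of making the molybdenum cofactor, and *ry* encodes xanthine dehydrogenase, an enzyme of purine breakdown that carries this cofactor. *Mocs1* had 6.44, 6.29, 6.38, 6.56 and 6.51 in mated heads, against 7.0, 7.06, 6.88, 6.90 and 6.67 in control heads, with no overlap (log2 fold change -0.47, SE 0.09). Its linear mean was 86.8 in mated heads and 120.2 in control heads, so *Mocs1* too passed the threshold only through the control group. *ry* had 8.16, 7.91, 7.43, 7.70 and 7.99 in mated heads, against 8.42, 8.48, 8.15, 8.37 and 8.12 in control heads (log2 fold change -0.47, SE 0.09), where only mated pool 1 reached into the range of the control pools. Each of the 2 had an adjusted p above 0.05 in limma (0.196 and 0.232).

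Other members of the set act in intermediary metabolism. *Galk*, the galactokinase that starts galactose use, had 11.48, 11.44, 11.48, 11.45 and 11.48 in mated heads, against 11.84, 11.71, 11.76, 11.69 and 11.61 in control heads (log2 fold change -0.26, SE 0.05), a tight group of mated pools below every control pool. *Tdh*, named for threonine dehydrogenase, had -0.34 (SE 0.06), and *Cyp6a8*, a cytochrome P450, had -0.42 (SE 0.06, adjusted p = 0.113). *bmm*, the brummer lipase that releases fatty acids from stored triglyceride, had 11.38, 11.23, 11.07, 11.08 and 11.34 in mated heads, against 11.58, 11.71, 11.24, 11.38 and 11.64 in control heads (log2 fold change -0.29, SE 0.06). *ninaD*, a scavenger receptor that takes up carotenoids for visual pigment, had -0.22 (SE 0.04) with no overlap, and the predicted transporter *CG3036* had -0.28 (SE 0.04, adjusted p = 0.113). The rest were *CG2004* at -0.31 (SE 0.05), *CG12863* at -0.34 (SE 0.07), the basic helix-loop-helix gene *tx* at -0.28 (SE 0.05), the Hsp70 cognate *Hsc70-1* at -0.23 (SE 0.04) and the clock gene *tim*, described below. In 6 of the 15, every mated array lay below every control array, and the sign was the same in dChip PM and MAS5.0 in all 15.

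**Figure D3:**
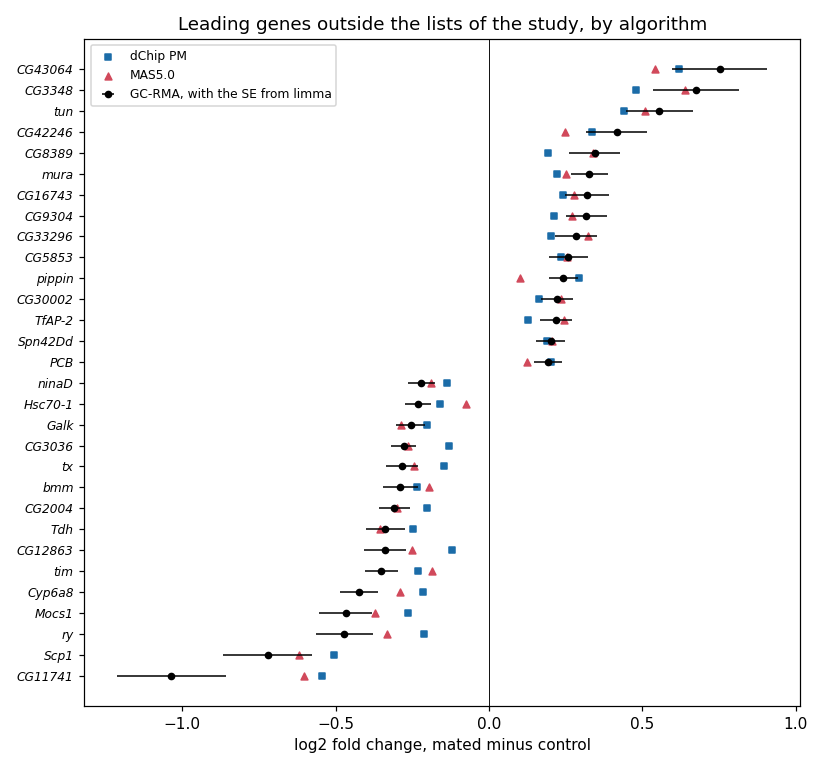
Log2 fold change, mated minus control (x axis), of the 30 genes outside the lists of the study that led in each direction (y axis), from GC-RMA values with the SE from limma, from dChip PM and from MAS5.0. All 30 keep their sign; the median of the 15 higher genes was 0.32 in GC-RMA, 0.22 in dChip PM and 0.25 in MAS5.0.

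By function, the genes of amino acid metabolism (one-carbon metabolism included), purine synthesis and fat use had more members past an unadjusted p of 0.05 than the background. Most of these members had lower values. Here and in the other functional lists, the counts include study genes, which were chosen on these arrays. To that extent the counts are no independent evidence. Of 34 kept genes of the first list, 4 were higher (11.8%) and 8 lower (23.5%), with a median of -0.04 that was 0.01 in dChip PM. Their extremes were study genes, such as *Gnmt*, a glycine N-methyltransferase, at 0.85 (SE 0.21), *AsnS*, which makes asparagine, at 0.39 (SE 0.05), *P5cr-2*, of proline synthesis, at -0.44 (SE 0.06) and *Agxt*, an aminotransferase acting on glyoxylate, at -0.44 (SE 0.07). Of 11 kept genes of purine synthesis, 3 were lower (27.3%) and 0 higher, and 4 were lower in all 5 pairs. The median of the 11 was below 0 in each pair (-0.05 to -0.13), at -0.08 in GC-RMA, -0.02 in dChip PM and -0.05 in MAS5.0. Without the study genes it was -0.06 in GC-RMA. *Prat2*, which opens the pathway, had 12.82, 13.002, 13.13, 13.02 and 12.94 in mated heads, against 13.13, 13.14, 13.28, 13.20 and 13.15 in control heads (log2 fold change -0.20, SE 0.05). *Gart*, a study gene that carries several later steps, had -0.45 (SE 0.05), and *Adsl*, adenylosuccinate lyase, had -0.16 (SE 0.06).

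Genes of fat use differed in both directions. Of 18 kept genes of fatty acid oxidation, 2 were higher (11.1%) and 5 lower (27.8%) at an unadjusted p under 0.05, and the median was -0.07, with -0.01 in dChip PM and -0.09 in MAS5.0. *whd*, the carnitine palmitoyltransferase that brings fatty acids into mitochondria, had 11.69, 11.64, 11.55, 11.66 and 11.48 in mated heads, against 11.75, 11.92, 11.72, 11.70 and 11.87 in control heads. These groups did not overlap, but the gap was small (log2 fold change -0.19, SE 0.06, adjusted p = 0.495 in limma). *CG9547*, a predicted acyl-CoA dehydrogenase, had -0.21 (SE 0.07), while *Acox57D-d*, a peroxisomal acyl-CoA oxidase, had 0.23 (SE 0.07) and the study gene *bgm*, which activates very long chain fatty acids, 0.53 (SE 0.08). Among genes of insulin signalling and fasting, 1 of 17 was higher and 4 were lower (23.5%): *bmm* above, *foxo*, a transcription factor that insulin holds inactive, at -0.23 (SE 0.07), *Pepck1*, of glucose synthesis, at -0.22 (SE 0.06), and the study gene *tobi*, a glucosidase, at -0.52 (SE 0.15). The list as a whole was split, with 9 members above and 8 below 0 and a median of 0.02 (0.04 in dChip PM). *Pepck1* had 13.76, 13.99, 13.68, 13.86 and 13.82 in mated heads, against 13.81, 14.10, 13.96, 14.25 and 14.09 in control heads. Its difference ran opposite to that of *PCB*, which precedes it on the way to glucose.

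Membrane and storage lipids gave a mixed picture. Of 24 genes of fatty acid and membrane lipid synthesis, 3 were higher (12.5%) and 1 lower (4.17%). The study gene *Pss*, a phosphatidylserine synthase, had 0.32 (SE 0.05) and *Pisd*, which turns its product into phosphatidylethanolamine, had 0.12 (SE 0.05) with higher values in all 5 pairs. *Agpat4*, an acyltransferase of phospholipid synthesis, had 0.36 (SE 0.10), and *Pcyt2*, which acts in the other route to phosphatidylethanolamine, had -0.12 (SE 0.04). *LpR2*, a lipoprotein receptor, had 10.46, 10.10, 10.38, 10.34 and 10.09 in mated heads, against 10.15, 9.89, 9.82, 10.15 and 9.99 in control heads (log2 fold change 0.27, SE 0.07), higher in every pair with a slight overlap. *Lpin*, a phosphatidate phosphatase needed for fat storage, had -0.15 (SE 0.05), and the storage protein gene *Lsp2*, a study gene, had -0.41 (SE 0.10), lower in 4 of 5 pairs. The glycolytic aldolase *Ald1* had 0.17 (SE 0.07) and the glycogen branching enzyme *AGBE* -0.18 (SE 0.06). In glycolysis and glycogen metabolism as a whole, 1 of 21 genes was higher and 2 were lower, close to the background.

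Lists of protein synthesis and quality differed among themselves. Of 71 kept genes for mitochondrial ribosomal proteins, 10 were lower (14.1%) and 0 higher at an unadjusted p under 0.05. A fold change below 0 was found in 68 of the 71, and in 58.5% of all genes. In all 5 pairs, 13 were lower (18.3%) and 0 higher. The size was small, a median of -0.08, with -0.04 in dChip PM, -0.05 in MAS5.0 and -0.06 after centring each array. The median was below 0 in pairs 1 to 4 (-0.10, -0.02, -0.17 and -0.09) and 0.03 in pair 5, so the shift was not shared by all pairs. *mRpS18A* at -0.13 (SE 0.05), *mRpS18C* at -0.17 (SE 0.06), *mRpL2* at -0.16 (SE 0.06) and *mRpL41* at -0.11 (SE 0.04) were among the 10, and the lowest adjusted p of the list was 0.495 in limma. Of 57 genes of the respiratory chain and ATP synthase, 49 had a fold change below 0 and 10 were lower in all 5 pairs (17.5%), but 1 passed an unadjusted p of 0.05, *ND-13B*, a subunit of complex I, at -0.15 (SE 0.05). That share of 1.75% is under the background. Their median was -0.04 (-0.02 in dChip PM) and, as for the mitochondrial ribosome, below 0 in pairs 1 to 4 and above it in pair 5. Of 26 proteasome subunits, 23 had a fold change below 0 and 0 passed an unadjusted p of 0.05 (median -0.06, and -0.02 in dChip PM). The 29 cytosolic ribosomal proteins had a median of -0.01 and the 22 genes of folding in the endoplasmic reticulum one of 0.00, with 0 past that p in either direction in both lists. Of 39 translation factors, 17 had a fold change above and 22 below 0, and of 23 genes for mRNA-binding and splicing proteins 17 lay above and 6 below 0, with a median of 0.04.

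Chaperones with an unadjusted p under 0.05 were all lower in mated heads. Of 25 kept heat shock proteins and chaperones, 6 were lower (24.0%) and 0 higher, 8 were lower in all 5 pairs (32.0%), and the median was -0.06, with -0.04 in dChip PM and -0.04 after centring. In pair 3 the median of the list, -0.01, was no lower than that of all genes, -0.02. Of the 6, 4 were subunits of CCT, the ring-shaped chaperonin that folds actin and tubulin. All 8 CCT subunits had a fold change below 0, also after each array was centred. Of these, 5 were lower in all 5 pairs, and 3 after centring. Past an unadjusted p of 0.05 in limma there were also 3 after centring. The median of the 8 was -0.13, and -0.11 after centring. *CCT5* had 9.46, 9.47, 9.52, 9.71 and 9.55 in mated heads, against 9.68, 9.72, 9.78, 9.96 and 9.66 in control heads (log2 fold change -0.22, SE 0.05, adjusted p = 0.247 in limma). *CCT8* had -0.16 (SE 0.05) and *Cdc37*, an Hsp90 partner, -0.17 (SE 0.06). The CCT subunits were singled out after their values were seen. Of 17 tRNA synthetases, 2 were lower, *GlnRS* at -0.14 (SE 0.05) and *PheRS-m* at -0.15 (SE 0.05), and 4 in all 5 pairs, but the median of -0.06 was 0.00 in dChip PM.

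Ribosome biogenesis and metal handling ran the other way. Of 20 kept genes of ribosome biogenesis, 4 were higher (20.0%) and 0 lower at an unadjusted p under 0.05, with a median of 0.06, which was 0.05 in dChip PM and 0.01 in MAS5.0. They were *Nop56* at 0.19 (SE 0.07), *Nop60B* at 0.17 (SE 0.06), *Nnp-1* at 0.15 (SE 0.05) and *Fib*, the fibrillarin that methylates ribosomal RNA, at 0.13 (SE 0.04). In MAS5.0 the difference of *Nop60B* was -0.01 and that of *Fib* was 0.01 (unrounded 0.005), so 2 of the 4 showed next to none there. Of 23 genes of iron and metal handling, 4 were also higher (17.4%) and 0 lower: the study gene *Irp-1B*, an iron-regulated RNA-binding protein, at 0.43 (SE 0.07), and the zinc transporters *ZnT77C* at 0.21 (SE 0.06), *ZnT41F* at 0.18 (SE 0.06) and *Zip102B* at 0.21 (SE 0.07), each higher in all 5 pairs. *Zip102B* had 10.49, 10.28, 10.44, 10.31 and 10.23 in mated heads, against 10.20, 10.27, 10.03, 10.03 and 10.17 in control heads. Of 9 zinc transporters kept, 7 had a fold change above 0 in GC-RMA and 8 after centring, with a median of 0.04, and *ZnT77C* had -0.01 in dChip PM. The zinc transporter family was picked out after its values were seen. For the whole list of metal handling, the median was 0.03, and 0.02 without the study genes.

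**Figure D4:**
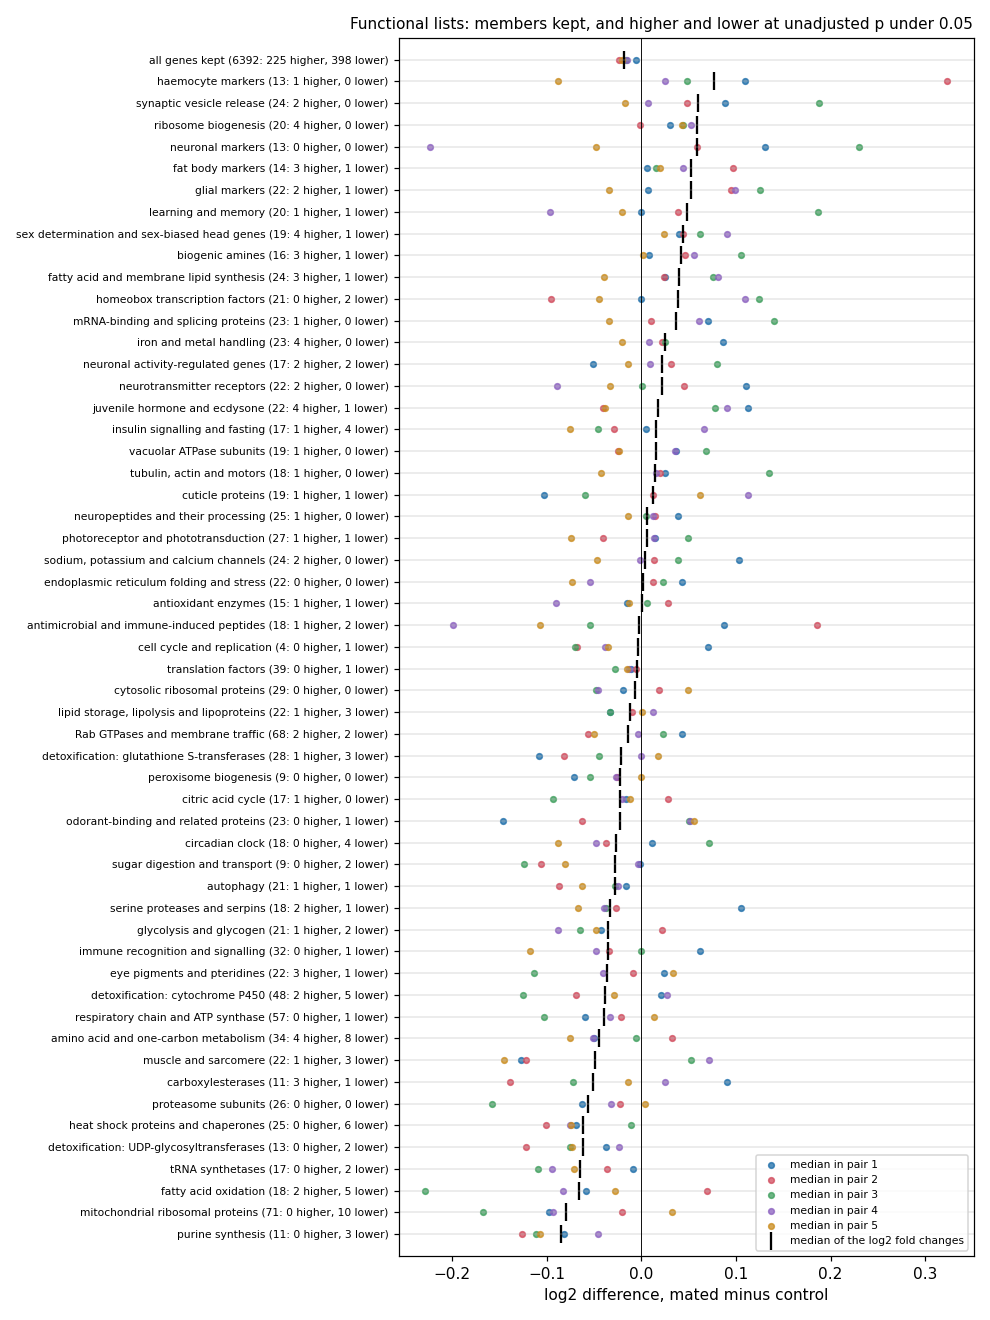
Functional lists with at least 3 members kept, ordered by the median log2 fold change, mated minus control (black bars on the x axis), with the median of the members in each of the 5 pairs as coloured points. The label of a list gives its members kept and how many were higher and lower at an unadjusted p under 0.05; the medians lie within 0.1 of 0 and most lists have pair values on both sides of it, and the medians of all genes are slightly below 0 in each pair.

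Genes of hormone signalling and of sex-biased expression included some of the largest differences in which the groups did not overlap. *Jhe*, the juvenile hormone esterase and a study gene, had 7.96, 7.97, 7.43, 7.56 and 7.39 in mated heads, against 6.53, 6.21, 6.50, 6.31 and 6.98 in control heads. All mated pools were above all control pools, and the log2 fold change was 1.15 (SE 0.17, adjusted p = 0.113 in limma), with 0.78 in dChip PM and 0.73 in MAS5.0. The linear mean of *Jhe* was 205.4 in mated heads and 92.6 in control heads, so it passed the threshold only through the mated group. *Kr-h1*, a zinc finger gene induced by juvenile hormone through its receptor, had 9.72, 9.57, 9.40, 9.65 and 9.61 in mated heads, against 10.27, 10.08, 9.46, 9.90 and 9.98 in control heads. It was lower in every pair, with -0.35 as the log2 fold change (SE 0.08, adjusted p = 0.268), with an overlap made by control pool 3. The nuclear receptor genes *usp* and *ftz-f1*, which act in ecdysone and juvenile hormone signalling, had 0.15 (SE 0.05) and 0.36 (SE 0.12). In all, 4 of 22 genes of juvenile hormone and ecdysone were higher (18.2%) and 1 lower (4.55%). The median of the list was 0.02, and 0.01 without the study genes.

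Of 19 genes of sex determination and sex-biased head expression, 4 were higher (21.1%) and 1 lower (5.26%), and the median was 0.04. Without the study's own genes, which were chosen on these arrays and make up 3 of the 4 higher ones, the median was 0.01. The leading members were these study genes. *fit*, a secreted protein that is female-biased in head fat body, had 13.004, 13.25, 13.51, 13.30 and 13.32 in mated heads, against 12.77, 12.75, 12.80, 12.73 and 12.52 in control heads (log2 fold change 0.56, SE 0.08), with no overlap. *CG16772* had 0.70 (SE 0.10) and *Prx6c*, a peroxiredoxin, 0.29 (SE 0.07). *Cyp4d21*, a male-biased cytochrome P450 of the fat body outside the study's lists, had 11.28, 11.07, 11.04, 11.63 and 11.28 in mated heads, against 11.24, 10.81, 10.99, 10.97 and 11.13 in control heads (log2 fold change 0.23, SE 0.09), where pair 4 gave most of the difference. Summed over 18 fat body markers, the linear intensity was 134800 to 149400 in mated heads and 134300 to 144700 in control heads, so the ranges overlapped. Of 14 markers kept, 10 had a fold change above 0 and the median was 0.05. What part this has in the fat body genes above was not tested.

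The clock genes that passed an unadjusted p of 0.05 were all lower in mated heads, 4 of 18 kept (22.2%) against 0 higher. *tim*, whose protein represses the clock together with that of *per*, had 8.61, 8.60, 8.31, 8.38 and 8.53 in mated heads, against 8.88, 9.08, 8.77, 8.66 and 8.80 in control heads (log2 fold change -0.35, SE 0.05, adjusted p = 0.113 in limma). Its groups did not overlap, and the fold change was -0.23 in dChip PM and -0.18 in MAS5.0. *per* had 7.15, 7.22, 6.65, 7.26 and 7.13 in mated heads, against 7.49, 7.51, 7.18, 7.19 and 7.37 in control heads (log2 fold change -0.27, SE 0.08). It was lower in 4 of 5 pairs. The RNA-binding protein gene *lark* had -0.15 (SE 0.05) and *Pdfr*, the receptor of the clock neuropeptide, -0.17 (SE 0.07). *Pdfr* was lower in only 3 of 5 pairs and had -0.02 in dChip PM. The list as a whole was evenly split, 9 members with values above and 9 below 0. Per the methods, flies were handled at the same time each day, and mated and control males of a pair were frozen together.

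In the further lists of the nervous system the differences were small and ran in both directions. Of 17 genes regulated by neuronal activity, 2 were higher and 2 lower. *Hr38*, a nuclear receptor gene induced in active insect neurons, had 8.88, 8.71, 8.42, 8.71 and 8.75 in mated heads, against 8.55, 8.67, 8.21, 8.17 and 8.52 in control heads, higher in every pair (log2 fold change 0.27, SE 0.07, adjusted p = 0.388 in limma). *cbt*, an early-response transcription factor gene, had 0.13 (SE 0.05), whereas *Arc2*, a relative of the neuronal capsid gene Arc, had -0.32 (SE 0.11) and *puc*, a phosphatase acting on JNK, -0.13 (SE 0.05). *Hr38* and *Arc2* thus differed in opposite directions.

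At the synapse, 2 of 24 genes of vesicle release were higher (8.33%) and 0 lower: *Syn*, which tethers vesicles, at 0.13 (SE 0.05) and the vesicle GTPase *Rab3* at 0.15 (SE 0.05). The median was 0.06, which stayed between 0.05 and 0.08 in the other versions and scalings, but was -0.02 in pair 5. Of 22 transmitter receptors, 2 were higher (9.09%) and 0 lower, the glutamate receptor subunit *Nmdar1* at 0.13 (SE 0.04) and the dopamine receptor *Dop2R* at 0.12 (SE 0.05). Acetylcholinesterase, *Ace*, which ends transmission at cholinergic synapses, had 11.25, 11.22, 11.26, 11.28 and 11.22 in mated heads, against 11.05, 10.89, 10.89, 10.98 and 11.24 in control heads (log2 fold change 0.24, SE 0.06), with near-identical values in the mated pools and control pool 5 among them. None of the 13 neuronal markers kept passed an unadjusted p of 0.05, and their median of 0.06 ran from -0.22 in pair 4 to 0.23 in pair 3. Summed over 16 markers the intensity was 45030 to 50950 in mated heads and 41080 to 53030 in control heads.

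Transmitter recycling by glia and amine synthesis also had members with higher values. *Gat*, the GABA transporter of glia, had 9.87, 9.93, 10.48, 9.93 and 9.94 in mated heads, against 9.71, 9.63, 10.02, 9.64 and 9.93 in control heads (log2 fold change 0.25, SE 0.07), with mated pool 3 apart from the others. *Gs2*, the glial glutamine synthetase, had 13.36, 13.32, 13.51, 13.40 and 13.31 in mated heads, against 13.29, 13.16, 13.15, 13.25 and 13.22 in control heads, no overlap at a log2 fold change of 0.16 (SE 0.06). Of 22 glial markers kept, 2 were higher (9.09%) and 1 lower, and the summed intensity of 25 markers was 72060 to 83330 in mated heads and 70140 to 75660 in control heads. Whether these 2 genes moved with the glial list as a whole was not tested. Of 16 genes of biogenic amines, 3 were higher (18.8%) and 1 lower. The median of the list was 0.04, which was 0.03 without the study genes and -0.02 in dChip PM. *Pu*, the GTP cyclohydrolase that opens pterin synthesis, had 0.18 (SE 0.05), *t*, which frees dopamine and histamine from beta-alanine conjugates, 0.18 (SE 0.07), the study gene *CG5618*, a predicted pyridoxal-dependent decarboxylase, 0.55 (SE 0.07), and the serotonin transporter *SerT* -0.17 (SE 0.06), which was 0.01 in MAS5.0. The sepiapterin reductase gene *CG12116*, of the study's list and the same pterin route as *Pu*, had 0.32 (SE 0.04).

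Detoxification enzymes differed in both directions. Of 48 cytochrome P450 genes kept, 2 were higher and 5 lower (10.4%), 4 were higher and 4 lower in all 5 pairs, and the median of -0.04 was 0.02 in dChip PM. *Cyp28d1*, one of the brightest genes with an unadjusted p under 0.05, had 13.44, 13.29, 13.36, 13.30 and 13.24 in mated heads, against 13.47, 13.61, 13.65, 13.53 and 13.51 in control heads (log2 fold change -0.23, SE 0.06), every mated pool below every control pool. *Cyp6w1* differed the other way, at 0.21 (SE 0.06), and the study gene *Cyp4e3* had -0.48 (SE 0.06). Of 13 UDP-glycosyltransferases, 2 were lower (15.4%) and 0 higher, *Ugt35C1* at -0.28 (SE 0.06) and *Ugt37D1* at -0.20 (SE 0.07), and the median was below 0 in each pair. Glutathione S-transferases had 1 higher and 3 lower of 28 kept: *GstE2* at 0.17 (SE 0.06), against *GstZ1* at -0.15 (SE 0.05), *GstT3* at -0.13 (SE 0.05) and *GstE6* at -0.12 (SE 0.05). The median of these transferases was -0.02, and 0.00 in dChip PM.

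Muscle genes did not differ the same way in all pairs. Of 22 genes kept, 1 was higher and 3 lower (13.6%), namely *Act79B*, an actin of tubular muscle, at -0.26 (SE 0.08), the troponin C *TpnC41C* at -0.13 (SE 0.05) and the actinin gene *Actn* at -0.12 (SE 0.05), each lower in all 5 pairs, whereas *Msp300*, a giant protein at muscle nuclei, had 0.18 (SE 0.08). The median of the list was -0.05, and -0.01 in dChip PM. By pair it was -0.13, -0.12 and -0.14 in pairs 1, 2 and 5, but 0.05 and 0.07 in pairs 3 and 4. Summed over 27 markers, muscle intensity was 71540 to 85230 in mated heads and 77290 to 91070 in control heads, and its part in the values of *Scp1* was not tested.

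The widest differences of all came from genes whose levels varied among pools of the same group. Antimicrobial peptide genes, which the fat body switches on in infection, are the first case. *CecB*, a cecropin, had 10.02, 6.61, 3.87, 5.98 and 3.90 in mated heads, against 10.30, 9.94, 3.95, 6.90 and 7.31 in control heads. *AttD*, an attacin, had 12.13, 8.75, 3.37, 8.60 and 4.77 in mated heads, against 13.31, 12.61, 5.39, 6.66 and 9.0 in control heads. Pools of pair 1 were high and those of pair 3 low for both genes, in either group. The log2 fold changes, -1.61 (SE 0.54) and -1.87 (SE 0.82), were lower in 5 and 4 of 5 pairs, with adjusted p of 0.495 and 0.522 in limma. *PGRP-SC2*, which degrades peptidoglycan, and *edin*, another gene induced by infection, were also lowest in pool 3 among control heads, with -0.98 (SE 0.43) and -1.17 (SE 0.59). *Listericin*, by contrast, had a narrow spread, with 12.14, 12.10, 11.52, 11.61 and 11.77 in mated heads, against 12.35, 12.27, 12.12, 11.99 and 12.05 in control heads (log2 fold change -0.33, SE 0.07, adjusted p = 0.2497 in limma), lower in every pair. *BomS2*, a peptide of the Toll response, had 0.19 (SE 0.07). Of 18 immune-induced peptides kept, 1 was higher and 2 lower, and the median was within 0.01 of 0. Blood cell markers had a median of 0.08 over 13 genes (0.05 in dChip PM), the highest of the functional lists, but it was -0.09 in pair 5 and 0.32 in pair 2, and 1 gene passed an unadjusted p of 0.05, the scavenger receptor *crq* at 0.22 (SE 0.09).

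Odorant-binding proteins of the antenna are the second case. *Obp83b* had 2.40, 4.61, 2.40, 2.40 and 2.39 in mated heads, against 2.40, 10.04, 8.87, 2.40 and 2.36 in control heads. *Os-C* had 2.11, 5.14, 2.12, 2.12 and 2.11 in mated heads, against 2.11, 9.60, 8.03, 2.11 and 2.11 in control heads. Values near 2 are at about the level of the body genes that heads lack, so both genes were measured above the background in control pools 2 and 3 and weakly in mated pool 2, and nowhere else. *lush* and *Obp69a*, picked after their values were seen, were likewise highest in those control pools, at 8.61 and 7.95 for *lush* and 9.91 and 8.97 for *Obp69a*, against 6.94 to 7.23 and 6.80 to 7.73 in the other control pools. In mated heads *lush* ranged from 7.01 to 7.45 and *Obp69a* from 7.03 to 8.18. The fitted log2 fold changes, -2.37 (SE 1.08) for *Obp83b*, -2.08 (SE 0.95) for *Os-C*, -0.35 (SE 0.17) for *lush* and -0.60 (SE 0.30) for *Obp69a*, therefore rest on pairs 2 and 3, and *Obp83b* and *Os-C* passed the threshold only through the control group. Without both pairs, *lush* had -0.02 and *Obp69a* 0.04, and *Obp83b* and *Os-C* were under the threshold. Other odorant-binding genes listed as antennal markers had broadly overlapping ranges of linear intensity. *Obp19d* had 23120 to 28280 in mated and 24350 to 27310 in control heads. *Obp44a* had 19820 to 25250 and 19440 to 24470, and *Obp99b* 12410 to 15670 and 13330 to 16260. *Obp99a* was far under the threshold in both groups (at most 5.48). The co-receptor gene *Orco*, which olfactory neurons of the antenna need, was under the threshold on all 10 arrays (at most 8.58), and 2 of 195 chemoreceptor genes were kept. Per the methods, heads were broken off frozen flies by vortexing; how many antennae each pool held is not given in the sources used here, and its part in these values was not tested. Across the whole family, 1 of 23 genes kept was lower at an unadjusted p under 0.05, the pherokine *Phk-3* at -0.20 (SE 0.07), and the summed intensity was 167100 to 197100 in mated heads and 175500 to 193000 in control heads.

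**Figure D5:**
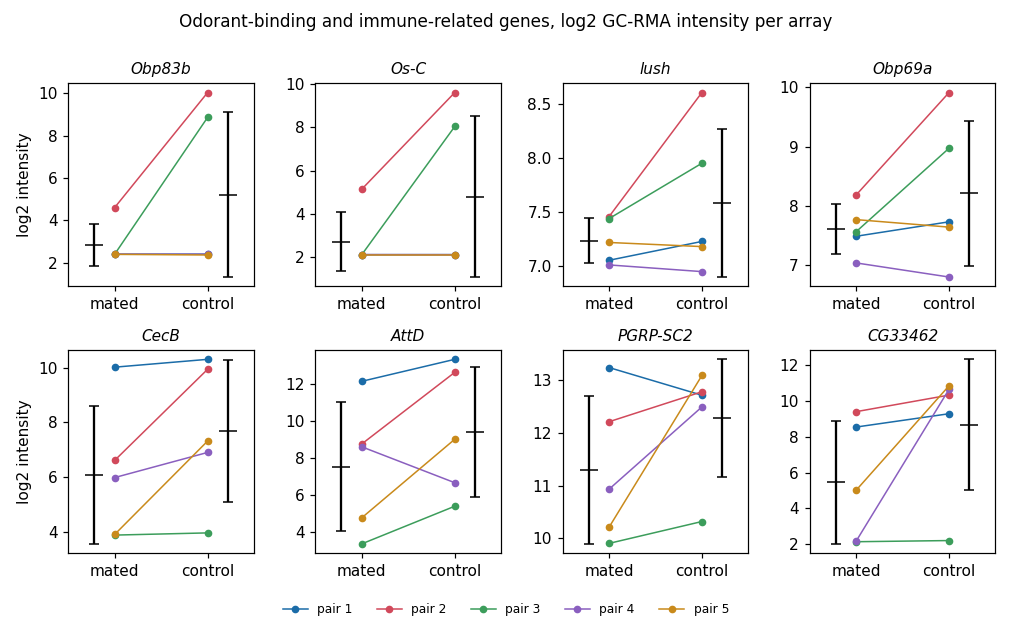
Log2 GC-RMA intensity (y axis) in mated and control heads (x axis) of 4 odorant-binding and 4 immune-related or protease genes, with lines joining the arrays of a pair and bars for the mean and SD over 5 arrays. Control pools 2 and 3 hold the high values of the odorant-binding genes, and values of the lower row spread over several log2 units within a group.

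*MtnD*, *CG33462* and *CG6675* also varied widely among pools of the same group. *MtnD*, a metallothionein that binds copper and other metals, had 4.61, 6.39, 4.27, 4.22 and 5.56 in mated heads, against 8.06, 4.82, 4.50, 13.43 and 10.18 in control heads, and was named after its values were seen. The log2 fold change was -3.18 (SE 1.38) at an adjusted p of 0.521 in limma, and -1.68 without pair 4, and *MtnD* too passed the threshold only through the control group. *CG33462*, a predicted serine protease of the study's list, had 8.54, 9.40, 2.14, 2.17 and 5.01 in mated heads, against 9.28, 10.32, 2.20, 10.65 and 10.84 in control heads (log2 fold change -3.21, SE 1.23), and -1.89 without pair 4. *CG6675* had 8.06, 8.896, 7.75, 7.36 and 8.05 in mated heads, against 7.91, 11.17, 7.90, 8.0 and 10.33 in control heads (log2 fold change -1.04, SE 0.39), where only control pools 2 and 5 stood clear of the mated range. For *CG11854*, of the takeout family, the log2 fold change was -0.65 (SE 0.25), and it was lower in 4 of 5 pairs.

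Among the brightest genes with an unadjusted p under 0.05, differences stayed below 0.3 on the log2 scale. Besides *PCB*, *Cyp28d1*, *Pepck1*, *Ald1* and *BomS2* these were *CG32425* at 0.25 (SE 0.07), *Rtnl1*, a reticulon that shapes the endoplasmic reticulum, at 0.14 (SE 0.05) and *AdipoR*, the adiponectin receptor homolog, at -0.14 (SE 0.05). *CG32425* had 13.28, 13.65, 13.81, 13.53 and 13.55 in mated heads, against 13.28, 13.35, 13.40, 13.34 and 13.21 in control heads, nearly equal in pair 1 and higher in mated heads in each of the others.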

How the data were processed

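RNA from pools of 30 male heads was hybridized to Affymetrix *Drosophila* Genome 2.0 arrays. Intensity values were made by the authors from each array with 5 algorithms (GCOS 1.2 is named in the submitters' processing notes, no other version was given in the sources used here), and the deposited values are linear. The R/Bioconductor GC-RMA version was used, with dChip PM and MAS5.0 as checks, and 30 of the 75 deposited columns, the other 2 versions, were left out. The versions of an array count as 1 replicate.

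Of 18952 probe sets, 183 controls were left out, and 13646 of the others had 1 gene, 402 several and 4721 none in the array's annotation, with symbols updated through gene IDs to the reference annotation (Release 6). Values under 1 were set to 1 before log2. Probe sets with a mean above 100 (dChip PM, 50) over the 10 arrays were tested two-sided with limma 3.58.1 in R 4.3.3 (lmFit, eBayes, the pair as a block), with the Benjamini-Hochberg adjustment over all of them. Precision is limited by the number of arrays. The methods state that mated and control samples were collected together for paired tests. Deviations from the group means correlated at 0.33, 0.48, 0.46, 0.43 and 0.10 between the arrays of pairs 1 to 5, over 7621 probe sets. In pairs 1 to 4 this was above the highest correlation with an array of another number (at most 0.17). In pair 5 it was not, at 0.0958 against 0.0981.

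The genes named are, with 1 probe set each, the 15 per direction with the lowest p outside the study's lists among those that differ the same way in all 5 pairs, up to 4 per functional list, the 8 with the largest fold change in each direction and the 8 brightest at an unadjusted p under 0.05, study genes and markers. There were 58 functional lists. The comparison, members and lists were chosen with earlier results of these data known. Lists were described by counts and medians, with no test. Fits were also run on simulated data with planted changes larger than most differences described here. That run therefore does not cover differences of the usual size, and nothing here rests on it. Alternatives were the test, algorithm, filter, scaling, arrays fitted and leaving out each pair, or pairs 2 and 3 together (chosen after seeing the data; Cyber-T style window 101, confidence 10). Python 3.11.15 and matplotlib 3.10.9 were used for tables and figures.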

Additional observations from a re-analysis of the deposited data

Results flagged for a closer look

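In the 143 genes described with values, each group of 5 arrays was screened for an array whose gap to its nearest neighbour exceeded 0.71 of the group's range, Dixon's limit for 5 values. Of 286 groups, 18 were marked, where chance marks about 1 in 20. All values are log2 GC-RMA intensities.

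Mated pool 3 stood apart most often. There it was highest for *Gat* (10.48, against 9.87 to 9.94 in the other mated pools), *Nnp-1* (9.91, against 9.77 to 9.81), *mRpL2* (9.54, against 9.37 to 9.42) and *GstE2* (11.05, against 10.58 to 10.71), and lowest for *per* (6.65, against 7.13 to 7.26). Mated pool 2 was highest for *Obp83b* (4.61, against 2.39 to 2.40) and *Os-C* (5.14, against 2.11 to 2.12). Mated pool 1 was highest for *BomS2* (13.88, against 13.64 to 13.70) and lowest for *tobi* (10.20, against 10.61 to 10.74), and mated pool 4 was lowest for *Prx6c* (12.30, against 12.68 to 12.76).

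Control pool 3 was lowest for *CG33462* (2.20, against 9.28 to 10.84 in the other control pools) and *PGRP-SC2* (10.32, against 12.49 to 13.08) and highest for *mRpL2* (9.90, against 9.45 to 9.56). Control pool 5 was lowest for *fit* (12.52, against 12.73 to 12.80), *ND-13B* (11.25, against 11.35 to 11.39) and *smp-30* (9.75, against 9.96 to 10.04). Control pool 4 was lowest for *CG33296* (6.98, against 7.31 to 7.41), and control pool 1 was highest for *Adsl* (10.28, against 10.01 to 10.08).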

How the results depend on the processing

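The adjusted p was under 0.05 for 0 of 7621 probe sets in limma, and 623 of 6392 genes had an unadjusted p under 0.05. That count of probe sets was 1 without the pair as a block (*smp-30*), 9 with limma-trend, 37 with the Cyber-T style test and 3 with all 15 arrays in the fit. It was 0 in dChip PM and MAS5.0, with no filter, with a mean above 200, after centring or quantile normalization, by the methods' t-test and without pairs 2 and 3. Leaving out 1 pair gave 0 to 1, the 1 being *CG16772* without pair 4.

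Genes with an unadjusted p under 0.05 numbered 225 higher and 398 lower, and 175 and 296 without the block. They were 593 higher in dChip PM, where 10677 genes were tested, 243 lower in MAS5.0, and 120 higher and 183 lower without pairs 2 and 3. Without 1 pair they ranged from 143 to 295 and from 254 to 416, both lowest without pair 4. Genes higher in all pairs numbered 223, and 645 in dChip PM, 357 with no filter, 341 after centring and 587 without pairs 2 and 3, and those lower in all pairs 452, and 281 after centring and 1032 without pairs 2 and 3. With 1 pair fewer, which is a weaker condition, there were 319 to 502 and 628 to 846.

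Of the 143 genes described with values, 138 kept their sign under each alternative wherever they could be fitted. The exceptions were *SerT* (0.01, unrounded 0.0148), *Nop60B* (-0.01, unrounded -0.005) and *Zasp52* (0.00, unrounded 0.0029) in MAS5.0, *ZnT77C* (-0.01, unrounded -0.0078) in dChip PM and *Obp69a* (0.04, unrounded 0.0404) without pairs 2 and 3. The cause was not tested. Medians of functional lists moved by more than their SD over pairs in 28 of 1099 cases, 10 of them in dChip PM and 5 in MAS5.0.

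These arrays give a hybridization signal and no counts, detection calls were not used, and levels near the lowest values carry no order. With 5 pairs, a gene that missed a threshold is not shown to be alike in mated and control heads.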

Other observations

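Some groups close to the background held single members past an unadjusted p of 0.05. Of 21 autophagy genes, 1 was higher and 1 lower: *Atg14*, a subunit of the lipid kinase complex that starts autophagosomes, had 9.71, 9.68, 9.64, 9.83 and 9.64 in mated heads, against 9.46, 9.56, 9.61, 9.48 and 9.61 in control heads (log2 fold change 0.16, SE 0.06), and *Atg9*, the membrane protein of the same process, had 9.19, 9.32, 9.32, 9.34 and 9.21 in mated heads, against 9.37, 9.45, 9.56, 9.47 and 9.54 in control heads (log2 fold change -0.20, SE 0.05). Neither gene's groups overlapped. Of 19 subunits of the vacuolar proton pump, 1 was higher, *VhaSFD* at 0.12 (SE 0.04), and 0 lower. The lysosomal alpha-mannosidase gene *LManII* had -0.10 (SE 0.04). Among further genes of the study's lists, the homeobox gene *Dr* had -0.67 (SE 0.12), the predicted ABC transporter *CG31689* -0.38 (SE 0.04), *smp-30* -0.52 (SE 0.06), *CG16898* -0.82 (SE 0.18) and *Sid*, a stress-induced DNase, 0.74 (SE 0.16).

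Values of the courted arrays, which entered no test, stand beside those of the leading genes as follows. *CG11741* had 6.02 to 6.80 in mated, 4.64 to 6.28 in courted and 6.75 to 7.78 in control heads. For *Jhe* the ranges were 7.39 to 7.97 in mated, 6.45 to 7.39 in courted and 6.21 to 6.98 in control heads. *Kr-h1* had 9.40 to 9.72 in mated, 9.11 to 9.76 in courted and 9.46 to 10.27 in control heads, and *Mocs1* 6.29 to 6.56 in mated, 6.13 to 6.95 in courted and 6.67 to 7.06 in control heads. *tim* had 8.31 to 8.61 in mated, 8.49 to 9.08 in courted and 8.66 to 9.08 in control heads. *Obp83b* was at 2.39 to 2.67 in all courted pools, near its level in most mated pools. Control pools 1, 4 and 5 were at that level too (2.40, 2.40 and 2.36), and control pools 2 and 3 had 10.04 and 8.87.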
